A study of Caenorhabditis elegans with 5 samples.

Results

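The comparison set the whole-animal mRNA of a set-32 mutant directly against that of a met-2 set-25 double mutant, and asked which genes tell these 2 losses of H3K9 methyltransferases apart. Its members are the gene models with at least 5 RPKM (reads per kilobase of model, scaled to the depth of the library) in the higher of the 2 libraries, which were 10267 of the 20911 models in the table. Of the remaining models, 4077 were listed at 0 in both libraries and 6567 lay above 0 but under 5 RPKM. The study sequenced polyadenylated RNA from pools of synchronised young adult Caenorhabditis elegans grown at 19 °C on the E. coli strain OP50, with 1 library for each of 5 genotypes. These were wild type (the strain N2), the single mutant set-32 with the allele ok1457, the double mutant met-2 set-25 with the alleles n4256 and ok5021, the triple mutant met-2 set-25;set-32 with all 3 of these alleles, and the mutant hrde-1 with the allele tm1200. All 5 groups share stage, temperature and food, and met-2 and set-25 were removed together, so the share of each of them cannot be told apart.

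Methylation of lysine 9 on histone H3 marks heterochromatin. In C. elegans, MET-2 places mono- and dimethylation and SET-25 adds trimethylation, and both are best known for tethering repeat-rich chromosome arms to the nuclear periphery and keeping repeats silent. SET-32 is a separate SET-domain enzyme that acts with the germline nuclear RNAi pathway, in which the Argonaute HRDE-1 carries small RNAs into the nucleus and directs H3K9 methylation to matching genes. The germline makes up a large part of the RNA of a young adult hermaphrodite, which has finished making sperm and is making oocytes.

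With 1 library a side there is no replicate error and no test of any difference between genotypes. A model was therefore counted as different only by size, where log2(RPKM + 1) differed by at least 1, that is 2-fold on RPKM + 1. Counts past or within 2-fold use this scale, so a model within 2-fold can have a plain RPKM ratio above 2. The steps between low RPKM values gave the worth of 1 read, from which read numbers were estimated, and each fold below is the plain ratio of RPKM values with an exact (Clopper-Pearson) 95% interval on those reads. The interval covers counting error only. One read on a 1-kb model was worth 0.450 RPKM in set-32 and 0.482 RPKM in met-2 set-25, so that the threshold of 5 RPKM stood for 11.1 and 10.4 reads on such a model. The estimated depth of the 5 libraries lay between about 1815000 and 2912000 reads.

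The RNA of the targeted genes went with the labels. met-2 stood at 47.3 RPKM in wild type, 34.4 in set-32 and 42.5 in hrde-1, against 12.6 in met-2 set-25 and 9.45 in the triple mutant. For set-25 the values were 17.5, 17.3 and 19.2 RPKM in the same 3 libraries, against 10.3 and 8.64 in the 2 libraries that carry its deletion. For set-32 they were 8.15 RPKM in the set-32 mutant and 5.65 in the triple mutant, against 12.3 in met-2 set-25, 12.5 in wild type and 14.5 in hrde-1. In each case the libraries with the deletion were the lowest, and the remaining RNA was above 0. Between the 2 libraries compared here, met-2 was 2.74-fold higher in set-32 (95% interval 2.18 to 3.47), and the set-32 ratio of 0.664 had an interval that included 1 (0.389 to 1.09).

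Of the models tested, 366 were at least 2-fold higher in set-32 than in met-2 set-25 (3.56%) and 321 were at least 2-fold lower (3.13%), which left 9580 within 2-fold. Among the 9893 models with a known length, the fold was past 2 and the counting interval excluded 1 for 230 higher (2.32%) and 186 lower models (1.88%). The median log2 ratio over all models tested was -0.09, with the middle 50% of models between -0.35 and 0.20. Setting that median to 0 moved the counts to 461 higher and 258 lower, so the higher share of the models past 2-fold went from 53.3% to 64.1%. A 4-fold difference was reached by 59 models on the higher side and 49 on the lower side, and an 8-fold difference by 14 on each.

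**Figure D1:**
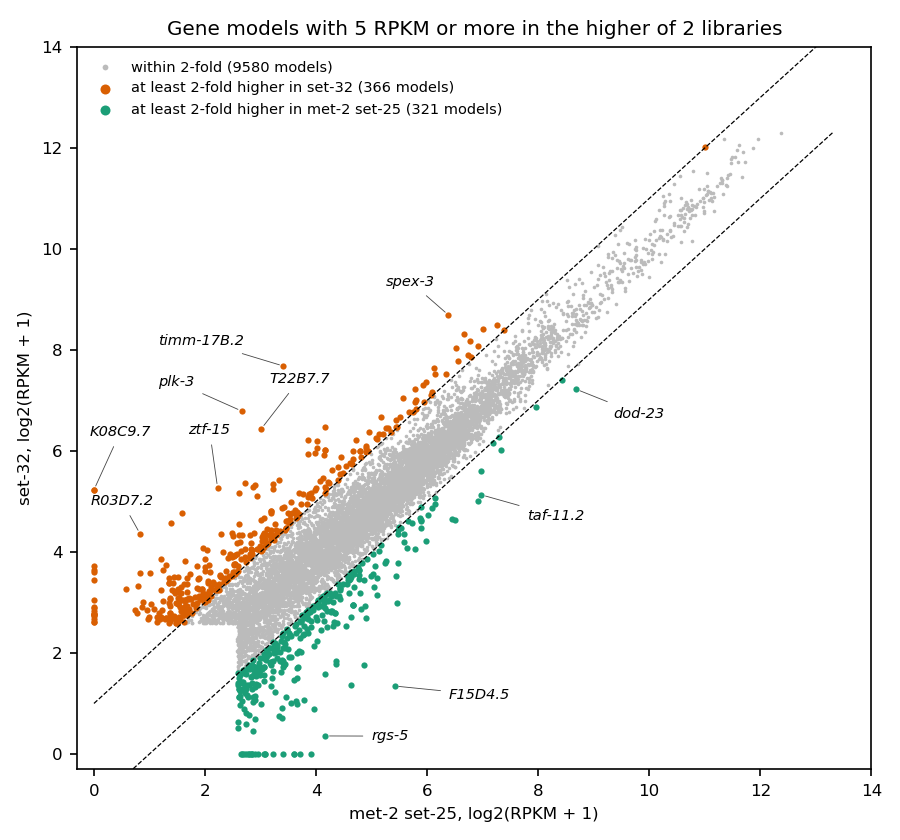
Level of each of the 10267 gene models tested in met-2 set-25 (x axis) and set-32 (y axis), both as log2(RPKM + 1), 1 library per genotype. Dashed lines mark a 2-fold difference, with 366 models above the upper line and 321 below the lower line; the arms at low levels hold most of them.

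The share of models past 2-fold, in either direction, was 6.69% between set-32 and the double mutant. For each of these against wild type it was 6.33% (set-32) and 4.9% (met-2 set-25). Against the triple mutant, which combines both sets of deletions, set-32 differed at 5.33% of models and met-2 set-25 at 3.9%, and the latter was the smallest share of the 10 pairs of libraries. This ranking depends on the measure. The median absolute log2 ratio was 0.204 between set-32 and the triple mutant, the smallest of the 10 pairs. Between met-2 set-25 and the triple mutant it was 0.223. The triple mutant and wild type differed at 5.46%. hrde-1 differed from wild type at 6.23% of models, from the triple mutant at 8.33%, from met-2 set-25 at 8.2% and from set-32 at 8.57%. The set-32 and met-2 set-25 libraries were therefore farther apart than either was from wild type or from the triple mutant, and every pair rests on 1 library a side.

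Low levels carried much of the difference. Among models with 5 to 10 RPKM in the higher library, 7.39% were past 2-fold higher and 7.66% past 2-fold lower, whereas among models with 20 to 50 RPKM the shares were 2.10% and 1.97%. Above that level the 2 directions parted. From 50 to 200 RPKM, 54 of 2743 models were higher in set-32 and 20 were lower. Many of these higher models were sperm genes of the msp, nspd, nspc and ssq families, described below. The msp, nspd and nspc copies are near-identical, so their reads cannot be told apart fully. From 200 to 1000 RPKM the counts were 12 higher and 3 lower of 465. The median level of the models past 2-fold, averaged over both libraries, was 9.28 RPKM for those higher and 7.29 RPKM for those lower, against 26.9 RPKM for all models tested. Their coding sequences were also shorter, with medians of 630 and 669 bases against 1104.

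**Figure D2:**
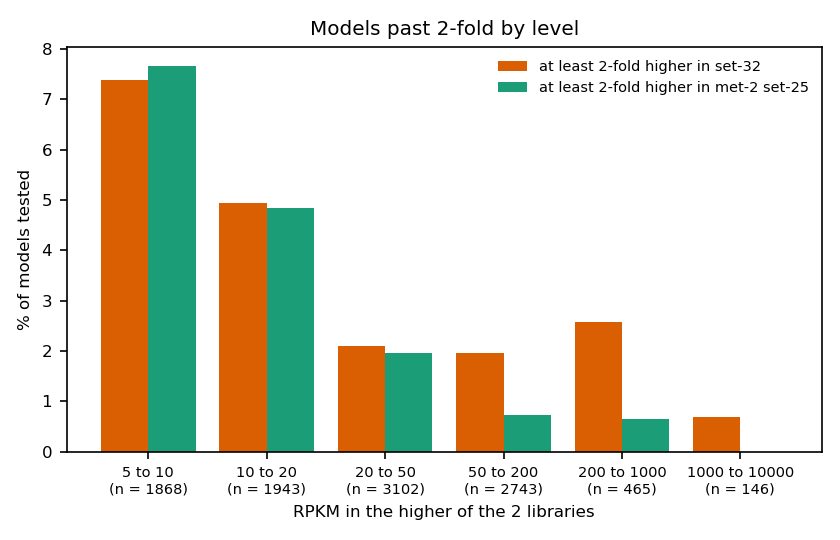
Percent of the models tested that were at least 2-fold higher in set-32 or at least 2-fold higher in met-2 set-25, by RPKM in the higher of the 2 libraries; n is the number of models tested in each bin. The bars fall from above 7% at 5 to 10 RPKM to about 2% at 20 to 50 RPKM, and the bars for met-2 set-25 are the lower ones from 50 RPKM up.

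The rule of 5 RPKM and 2-fold has members close to each edge. On the higher side clec-265 (20.8 against 9.87 RPKM) was just inside and lon-1 (76.0 against 37.5 RPKM) just outside, and on the lower side pals-23 (7.24 against 15.5 RPKM) was just inside and B0403.3 (2.77 against 6.52 RPKM) just outside. F15E6.6, at 5 RPKM in set-32, was the lowest kind of model admitted, and dhs-27 at 4.99 RPKM was left out.

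To place each difference, the level of every model was read in the other 3 libraries as well. Of the 366 models higher in set-32, 45 were at least 2-fold above all 4 other libraries in set-32, and 44 were at least 2-fold below all 4 others in met-2 set-25. Of the 321 models lower in set-32, 31 were at least 2-fold below all 4 others in set-32 and 22 were at least 2-fold above all 4 others in met-2 set-25. For the other 277 and 268 models neither library stood apart in this way. Wild type was nearer to met-2 set-25 for 234 of the models higher in set-32 (63.9%) and nearer to set-32 for 184 of the models lower in set-32 (57.3%), beside 58.2% and 41.8% over all models tested. The triple mutant was nearer to met-2 set-25 for 206 of the models lower in set-32 (64.2%) and for 189 of those higher (51.6%), beside 48.4% over all models tested.

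The genes with the lowest level in the met-2 set-25 library alone included several that were even in the other 4. plk-3, a polo-like kinase gene on chromosome IV (WBcel235, 7470860 to 7473209), stood at 5.33 RPKM in met-2 set-25, against 109.7 in set-32, 109.9 in the triple mutant, 134 in wild type and 169.6 in hrde-1. That is a 20.6-fold difference between the 2 libraries compared (95% interval 13.4 to 34.7, from about 449 and 20 reads). The triple mutant carries the same met-2 and set-25 alleles as the double mutant, and its plk-3 level was within 1.3-fold of wild type in the RPKM values just given. ztf-15, which encodes a zinc-finger protein (chromosome I, 7255380 to 7258700), showed the same arrangement, with 3.68 RPKM in met-2 set-25 and 31.8 to 37.6 RPKM in the other 4 libraries. Its level in set-32 was 10.2-fold that in met-2 set-25 (6.12 to 17.7).

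Other genes of this kind differed less or had fewer reads. R03D7.2 (chromosome II) was at 0.78 RPKM in met-2 set-25, 19.5 in set-32, 19.0 in the triple mutant, 14.7 in wild type and 33.7 in hrde-1, a 25-fold difference that rests on about 2 reads on the low side (6.27 to 202). The neighbours C49C3.6 and C49C3.7 at the right end of chromosome IV (17331527 to 17333646) were both low in met-2 set-25. C49C3.7 was at 6.5 RPKM there and between 39.0 and 66.1 in the other 4 libraries, and C49C3.6, chosen after its values were seen, was at 14.9 RPKM there and between 61.2 and 78.3 elsewhere. In both genes met-2 set-25 lay below every other library without overlap. The adjacent genes rpb-4 and F43E2.1 on chromosome II followed at a smaller distance. rpb-4, which encodes a subunit of RNA polymerase II, had 54.4 RPKM in met-2 set-25 and 120.3 to 149.7 RPKM in the other 4, and was 2.74-fold higher in set-32 (1.96 to 3.86).

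**Figure D3:**
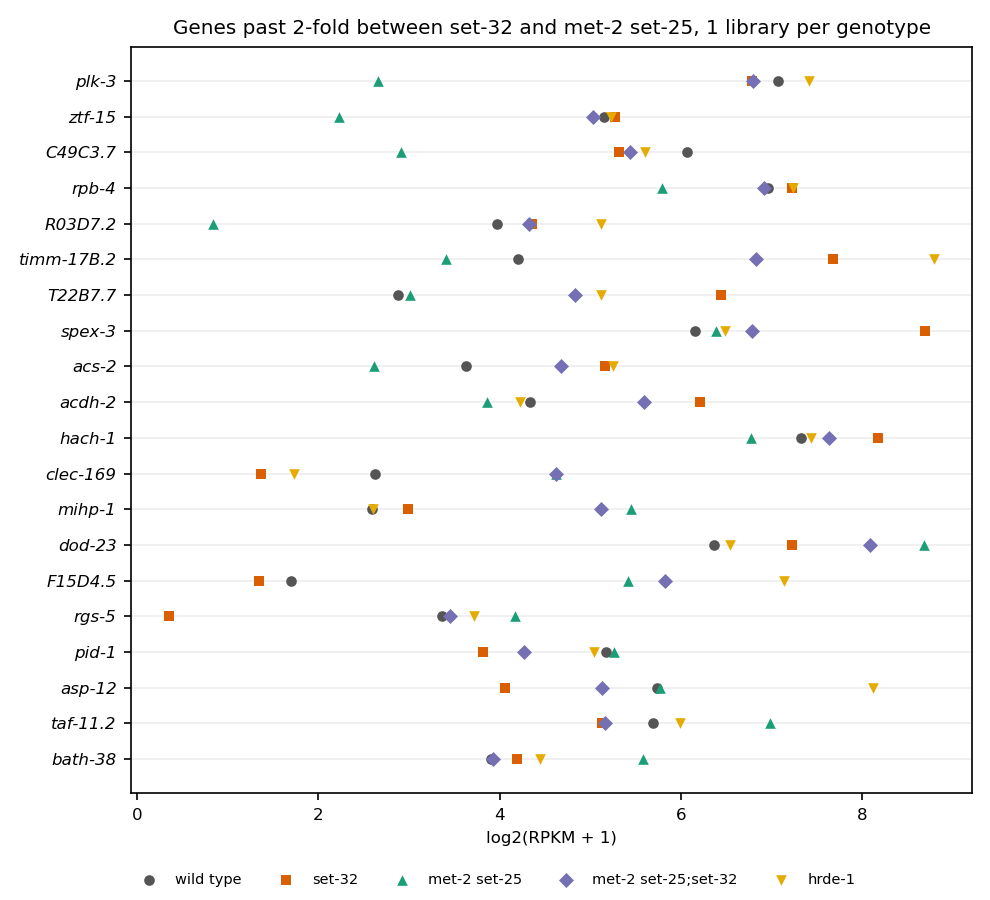
Level of 20 genes in each of the 5 libraries, as log2(RPKM + 1), 1 point per library. The top 5 genes have met-2 set-25 alone at the low end, the next 6 have set-32 above met-2 set-25 and wild type, clec-169, mihp-1, dod-23 and F15D4.5 have met-2 set-25 and the triple mutant together above wild type and set-32, and rgs-5, pid-1 and asp-12 have set-32 at the low end, and the last 2 have met-2 set-25 alone at the high end. For hach-1 and acdh-2, which have 2 models each, the model with the larger ratio is drawn.

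A second kind of gene was high in the set-32 library. K08C9.7, annotated as a pseudogene on chromosome I (11495521 to 11496245), had 36.5 RPKM in set-32, or about 43 reads, and was listed at 0 in the other 4 libraries, which makes it at least 13.5-fold higher than in met-2 set-25 against a floor of 3 reads. F34H10.1 on the X chromosome was likewise at 36.4 RPKM in set-32, about 15 reads, and at 0 in the others, at least 4.77-fold higher. Neither gene was seen in the triple mutant, which carries the same set-32 allele. spex-3 (chromosome III, 1701712 to 1702437) was the most abundant gene of this kind, with 413 RPKM in set-32 against 82.5 in met-2 set-25, 70.4 in wild type, 88.5 in hrde-1 and 109.1 in the triple mutant, and was 5.01-fold higher in set-32 than in met-2 set-25 (3.52 to 7.50). T22B7.7 on the X chromosome had 85.8 RPKM in set-32, 27.5 in the triple mutant, 33.6 in hrde-1, 7.08 in met-2 set-25 and 6.35 in wild type. Its libraries formed an order in which set-32 was highest and wild type and met-2 set-25 lay close together at the low end.

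timm-17B.2 (chromosome IV, 8396648 to 8397954) encodes a predicted subunit of the mitochondrial inner-membrane translocase and had the largest log2 ratio among genes with reads in both libraries. It stood at 204 RPKM in set-32 and 9.65 in met-2 set-25, a 21.2-fold difference (11.1 to 52.4). The triple mutant had 113 RPKM, hrde-1 had 442 and wild type 17.4. All 3 genotypes with a mutation in set-32 or hrde-1 were thus at least 6-fold above wild type in these values, and met-2 set-25 was below it. Its neighbour M116.2 was 2.60-fold higher in set-32 (1.10 to 6.68), at 13.62 against 5.24 RPKM, with 13.1 in the triple mutant, 18 in hrde-1 and 4.97 in wild type. The mitochondrial import list as a whole was not shifted in this way: of its 13 measured models, timm-17B.2 was higher, tin-9.1 lower (32.6 against 69.6 RPKM), and 11 were within 2-fold, with a median log2 ratio of 0.13 beside -0.09 over all models tested. Each direction held 7.69% of the list, beside 3.56% higher and 3.13% lower over all models. Only for timm-17B.2 did the counting interval exclude 1.

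Of 94 measured models in a list of fatty acid metabolism genes, 6 were at least 2-fold higher (6.38%, beside 3.56% of all models). Of these 6, 2 are models of the same gene, acdh-2. In the same list 1 model was lower (1.06%, beside 3.13%), and the list median was 0.16. acs-2, which encodes an acyl-CoA synthetase of mitochondrial fatty acid oxidation that is induced by fasting, had 34.9 RPKM in set-32 and 5.14 in met-2 set-25, a 6.80-fold difference (4.20 to 11.3). Wild type had 11.4 RPKM, the triple mutant 24.5 and hrde-1 37.2, so that met-2 set-25 was the lowest library and set-32 and hrde-1 were the highest. The acyl-CoA dehydrogenase gene acdh-2 had 72.9 RPKM in set-32 and 13.55 in met-2 set-25 in 1 of its 2 models, with 47.3 RPKM in the triple mutant, 19.1 in wild type and 17.7 in hrde-1. Here the 2 libraries with the set-32 allele stood above the other 3.

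Further metabolic genes, in the fatty acid list and outside it, mostly had smaller ratios. dhs-25, a short-chain dehydrogenase gene, was at 319 against 100.9 RPKM, and acdh-9, another acyl-CoA dehydrogenase gene, was at 220.0 against 93.4 RPKM. The other dehydrogenase gene past 2-fold, dhs-26, had 5.70 RPKM in set-32 and was listed at 0 in met-2 set-25, at least 3.80-fold higher. The 1 lower model was ech-9, an enoyl-CoA hydratase-family gene, listed at 0 in set-32 with 6.21 RPKM in met-2 set-25, at least 5.99-fold lower in set-32, and with 5.27 RPKM in the triple mutant and 1.51 in wild type. hach-1, which encodes an acyl-CoA hydrolase, is outside the list and was named for its abundance. It had 287 against 108.1 RPKM, a 2.66-fold difference (2.30 to 3.09). A further 4 genes, also outside the list, were picked for their ratios, so that their direction is fixed by the choice. The peroxisomal acyl-CoA oxidase neighbours acox-1.2 and acox-1.3 had 22.5 against 5.11 RPKM and 16.03 against 7.37 RPKM. The glyoxylate cycle gene icl-1 had 125 against 54.2 RPKM, and the lactate dehydrogenase gene ldh-1 had 261 against 91.3 RPKM. Wild type lay between the 2 libraries for dhs-25, acdh-9, hach-1, icl-1 and ldh-1, at 124.3, 104.05, 159.6, 64.5 and 135 RPKM.

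Genes of host defence were past 2-fold in both directions, and more of them were lower in set-32. The C-type lectins, secreted carbohydrate-binding proteins of which many respond to infection, had 6 higher (10.7%, beside 3.56% of all models) and 9 lower members (16.1%, beside 3.13%) among 56 measured models of 241, with a median log2 ratio of -0.10. The immune effector list had 3 higher (4.23%, near the share of all models) and 9 lower members (12.7%) among 71 measured models of 160. Its median was -0.13. The counting interval excluded 1 for 5 higher and 8 lower lectin models, but for only 1 higher and 4 lower immune effector models. Among the lower ones, fipr-3, fipr-4, fipr-6, fipr-7 and cnc-7 had intervals that included 1. These were under 5 RPKM in set-32. clec-169 (chromosome IV, 1261324 to 1264622) was at 1.58 RPKM in set-32, 23.6 in met-2 set-25, 23.6 in the triple mutant, 5.18 in wild type and 2.32 in hrde-1, which made it 14.9-fold lower in set-32 than in met-2 set-25 (5.94 to 46.2). clec-67 had the same arrangement, with 1.76 RPKM in set-32 and 11.1 and 10.8 RPKM in met-2 set-25 and the triple mutant. The abundant dod-23, a gene regulated by insulin signalling, had 148 RPKM in set-32, 410.0 in met-2 set-25, 270.0 in the triple mutant, 81.6 in wild type and 91.9 in hrde-1. The infection response gene irg-8 had 168.85 RPKM in set-32, 344 in met-2 set-25, 258 in the triple mutant, 156 in wild type and 113 in hrde-1. In both of these genes met-2 set-25 was highest and the triple mutant next. On the other side, sysm-1 had 33.7 RPKM in set-32 and 6.67 in met-2 set-25 (5.05-fold, 1.75 to 20.5), and clec-52 had 18.8 and 4.66 RPKM.

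One set of genes was high in both libraries that carry the met-2 and set-25 alleles. Models were counted whose level in met-2 set-25 and in the triple mutant was at least 2-fold above each of wild type, set-32 and hrde-1, and there were 40 of them (0.390% of those tested). The opposite pattern, both libraries at least 2-fold below the other 3, was found in 3 models, sel-2, asp-8 and met-2 itself. For the 2 libraries with the set-32 allele, the same count gave 11 models above and 3 below the other 3 libraries. All of these models are past 2-fold between set-32 and the double mutant by construction, and in 26 of the 40 the counting interval of that ratio excluded 1. In 34 of the 40 set-32 was under 5 RPKM, so that they passed the minimum only through met-2 set-25. Of the 40, 39 were outside the germline classes (97.5%, beside 83.7% of all models tested), 13 lay on chromosome IV (32.5%, beside 17.2%) and 13 on chromosome V (32.5%, beside 16.8%). The differences between these shares were not tested.

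The 40 models included 5 C-type lectin genes (12.5%, beside 0.545% of all models tested, or 56 of 10267). clec-166, clec-169 and clec-170 lie within 26 kb of each other on chromosome IV (1249192 to 1274425), and the other 2 were clec-67 and clec-126. All but clec-166 were under 5 RPKM in set-32 and passed the minimum only through met-2 set-25. The counting interval of clec-126 included 1. The 40 were selected for high values in met-2 set-25, so the difference between the 2 shares is not a test. clec-166 had 24.6 and 22.3 RPKM in met-2 set-25 and the triple mutant and 4.15 to 8.88 RPKM in the other 3 libraries, and clec-170 had 7.36 and 8.09 against 1.72 to 2.46 RPKM. mihp-1 (chromosome I), chosen after its values were seen, had 42.8 and 33.7 RPKM in these 2 libraries and 5.04 to 6.91 RPKM in the others. M02H5.8, chosen in the same way, was the most abundant at 119 and 92.2 RPKM, against 30.6 to 40.9 RPKM. rrf-2, a paralogue of the RNA-dependent RNA polymerases that make small RNAs, had 6.6 and 6.95 RPKM against 1.51 to 2.60 RPKM, and was 4.10-fold lower in set-32 than in met-2 set-25 (2.37 to 7.44). The 11 models above the other 3 libraries in set-32 and the triple mutant included both models of acdh-2, the immune effector genes sysm-1 and cnc-4, and the neuropeptide gene flp-8. In 7 of the 11 met-2 set-25 was under 5 RPKM, so that they passed the minimum only through set-32. The counting interval excluded 1 in 7 of the 11, and cnc-4 was not among these. flp-8 had 19.8 and 15.7 RPKM in set-32 and the triple mutant and 3.92 to 4.60 RPKM elsewhere.

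A few genes were high in met-2 set-25 alone, with the triple mutant at the level of the others. taf-11.2, which encodes a subunit of the general transcription factor TFIID, had 125 RPKM in met-2 set-25, 34.02 in set-32, 34.9 in the triple mutant, 50.6 in wild type and 62.5 in hrde-1, a 3.68-fold difference between the libraries compared (2.76 to 4.92). bath-38 had 46.8 RPKM in met-2 set-25 and 13.9 to 20.8 RPKM in the other 4. cyp-13A5, a cytochrome P450 gene, had 19.5 RPKM against 2.59 to 5.66 RPKM. The autophagy gene atg-16.2 and R10E4.1, both chosen after their values were seen, had 43.2 and 90.1 RPKM in met-2 set-25, and 12.7 to 17.8 and 8.5 to 25.9 RPKM in the others. In each of these genes met-2 set-25 was the highest of the 5 libraries.

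Several genes were lowest in set-32 alone. rgs-5, which encodes a regulator of G-protein signalling (chromosome III, 5698555 to 5702305), had 0.28 RPKM in set-32, about 1 read, against 16.96 in met-2 set-25, 9.94 in the triple mutant, 9.31 in wild type and 12.1 in hrde-1. The ratio was 60.6-fold, with an interval from 9.55 to 2239. F33H12.7 and mec-19 were listed at 0 in set-32 and had 14.1 and 11.18 RPKM in met-2 set-25, at least 4.75-fold and 3.20-fold lower in set-32. The more abundant aspartic protease gene asp-12 had 15.7 RPKM in set-32, 53.8 in met-2 set-25, 33.9 in the triple mutant, 52.1 in wild type and 277 in hrde-1, and was 3.42-fold lower in set-32 than in met-2 set-25 (2.41 to 5.02).

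Most genes of small RNA pathways were within 2-fold. In 3 lists of such genes, 4 models were past 2-fold lower in set-32, 1 of 12 (8.33%), 2 of 35 (5.71%) and 1 of 18 (5.56%), beside 3.13% of all models, and none was past 2-fold higher. The nuclear RNAi list, of HRDE-1 and its partners, had 12 measured models, all with a ratio below 0 and a median of -0.38, beside -0.09 over all models. Only enri-2 of these was past 2-fold, at 4.14 RPKM in set-32, 12.5 in met-2 set-25, 10 in the triple mutant, 17 in wild type and 13.5 in hrde-1, a 3.03-fold difference from about 6 and 17 reads (1.14 to 9.39). Of 35 models for RNA-dependent RNA polymerases, mutators and other small-RNA factors, 28 had a ratio below 0, the median was -0.22, and pid-1 and rrf-2 were past 2-fold. pid-1, a piRNA pathway gene, had 13.1 RPKM in set-32, 18.3 in the triple mutant and 31.9 to 37.4 RPKM in the other 3 libraries. Of 18 Argonaute models outside the nuclear pathway, vsra-1 was past 2-fold (16.6 against 34.9 RPKM), and with 15.7 RPKM in the triple mutant, 19.3 in wild type and 23.1 in hrde-1 it was met-2 set-25 that stood highest. hrde-1 itself was at 178 RPKM in set-32 and 234 in met-2 set-25. The list of H3K9 methyltransferase and heterochromatin genes had met-2 as the 1 model past 2-fold of 27 measured, and a median of -0.23.

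These small shifts moved together with the germline classes that the authors' table gives each model. The oocyte class had 559 of 677 measured models (82.6%) below a ratio of 0 and a median of -0.26, and the intrinsic germline class had 559 of 742 (75.3%) below 0 and a median of -0.20. Very few of these models were past 2-fold. The oocyte class had 4 higher (0.591%) and 6 lower (0.886%), and the intrinsic class had 16 higher (2.16%) and 9 lower (1.21%). All of these shares were below those of all models, 3.56% higher and 3.13% lower. The summed level of the oocyte class was 40274 RPKM in set-32 and 41236 in the triple mutant, against 47578 to 49412 RPKM in the other 3 libraries. The part of that difference in the small-RNA gene values was not tested.

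Sperm genes went the other way, among them ssq-4, a gene of the authors' sperm class, with 199.8 RPKM in set-32 and 68.9 in met-2 set-25. All 30 major sperm protein genes, which encode the cytoskeletal and signalling protein of nematode sperm, were higher in set-32 than in met-2 set-25. Their median log2 ratio was 0.75, and 5 of them were past 2-fold. Their summed level was 2903 RPKM in set-32, against 1645 in met-2 set-25, 1447 in the triple mutant, 1234.1 in wild type and 1104 in hrde-1, so that set-32 stood above the other 4 libraries. Of 37 measured models in the small sperm families ssp, nspd and nspc, 36 were higher, 12 of them past 2-fold (32.4%, beside 3.56% of all models), with a median of 0.92. nspd-7 had 100.6 RPKM in set-32 and 20.8 to 48.9 RPKM in the other 4 libraries, and msp-31 had 128 RPKM in set-32 and 42.8 to 56.8 RPKM in the others. These families are made of near-identical copies, between which reads cannot be told apart fully. The authors' sperm class has 797 models, of which 254 passed 5 RPKM in the higher library. Among these 254, 207 were above 0, with a median of 0.58. Past 2-fold were 43 higher (16.9%, beside 3.56% of all models) and 8 lower (3.15%, beside 3.13%). For 28 higher and 4 lower ones the counting interval excluded 1. Most of those past 2-fold were under 5 RPKM in the lower library and passed the minimum only through the other, so their shares are not a test. Once models of those gene families (msp, ssp, nspd) were set aside, 172 of the remaining 218 in the class were above 0, with a median of 0.50. In whole-animal RNA, more sperm cells and more sperm RNA per cell cannot be told apart.

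**Figure D4:**
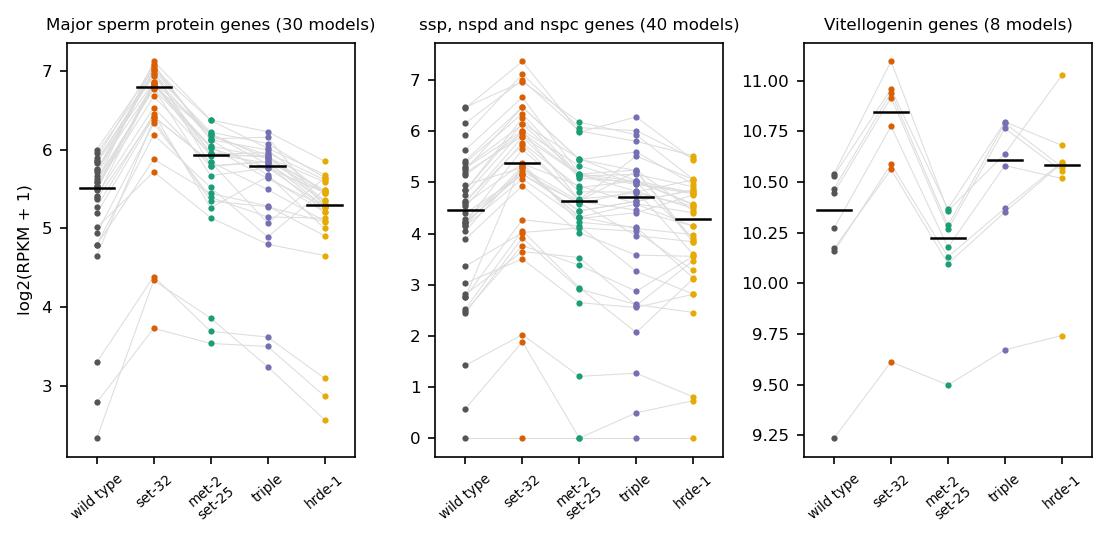
Level of each gene model of the major sperm proteins, of ssp, nspd and nspc, and of the vitellogenins in the 5 libraries, as log2(RPKM + 1). Some genes have more than 1 model. Grey lines join the values of 1 model, black bars are medians over models, and triple is met-2 set-25;set-32. The vertical axes differ in range. The set-32 library has the highest median in all 3 panels, and all 30 major sperm protein genes are higher in it than in met-2 set-25.

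A shorter list of known spermatogenesis genes outside those families was evenly split. Of its 22 measured models, 11 were above and 11 below 0, with a median of 0.00, and htas-1 and spe-11 were past 2-fold. The vitellogenins, yolk proteins that the intestine makes for oocytes, were all higher in set-32, 8 of 8 models. Their median was 0.59 and none was past 2-fold. vit-2 and vit-6 have 2 models each, so the 8 models are not 8 separate genes. The summed level of the models, which counts these genes more than once, was 13649 RPKM in set-32 and 9202 in met-2 set-25. These were the highest and the lowest of the 5 libraries. Genes of oocyte maturation, yolk uptake and eggshell were lower in 31 of 39 models, with a median of -0.33, and again none was past 2-fold. Markers of body-wall muscle (28 models) had a median of 0.15, markers of neurons (7 models) a median of -0.06 and markers of the intestine (27 models) a median of 0.16, beside -0.09 over all models. The cytosolic ribosomal proteins had a median of 0.00 over 85 models with none past 2-fold, and the proteasome a median of -0.04 over 35.

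**Figure D5:**
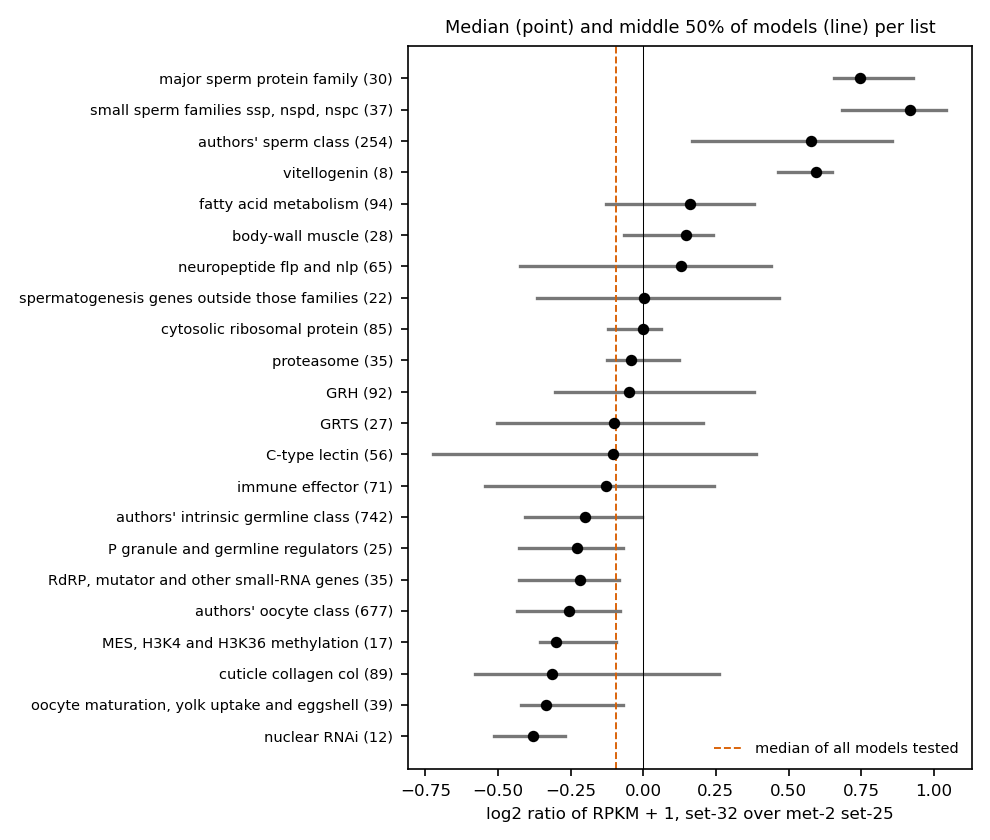
Median (point) and middle 50% (line) of the log2 ratio of RPKM + 1, set-32 over met-2 set-25, for 22 lists, with the number of models measured in brackets; the dashed line is the median of all models tested, -0.09. GRTS and GRH are the authors' marks for HRDE-1-dependent silencing and heterochromatin. The major sperm proteins, the small sperm families, the authors' sperm class and the vitellogenins lie between 0.58 and 0.92, the spermatogenesis genes outside those families lie at 0.00, and the nuclear RNAi and oocyte lists lie to the left.

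Cuticle collagens were split by level. Of 89 measured col models, 59 were below 0, the median was -0.31, 2 were past 2-fold higher (2.25%, beside 3.56% of all models) and 5 past 2-fold lower (5.62%, beside 3.13%). Their summed level was nevertheless higher in set-32, at 56572 RPKM against 41092 in met-2 set-25, and abundant members such as col-106 were higher. col-106 had 4131 RPKM in set-32, 2060 in met-2 set-25, 2827 in the triple mutant, 2715 in wild type and 1735 in hrde-1, and at this depth of about 8146 and 3798 reads its 2.01-fold difference had an interval of 1.93 to 2.08. col-135 had 38.1 RPKM in set-32, 6.29 in met-2 set-25, 3.32 in the triple mutant, 21.7 in wild type and 5.6 in hrde-1, and was 6.06-fold higher in set-32 (3.98 to 9.52). Other abundant genes higher in set-32 were the metallothionein gene mtl-2 (339 against 128 RPKM), ule-1 (360 against 153 RPKM) and nlp-33, an epidermal antimicrobial peptide gene (335 against 166 RPKM).

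The models that the authors list as targets of the germline nuclear RNAi pathway were split between the 2 directions. Of the 121 models marked for HRDE-1-dependent transcriptional silencing, 27 passed 5 RPKM in the higher library, 5 of them past 2-fold higher in set-32 (18.5%, beside 3.56% of all models) and 4 lower (14.8%, beside 3.13%). Of the 142 models marked for HRDE-1-dependent heterochromatin, 92 passed, with 14 higher (15.2%) and 3 lower (3.26%). The median ratios, -0.10 and -0.05, were close to that of all models. The counting interval excluded 1 for 4 higher and 3 lower silencing models, and for 11 higher and 2 lower heterochromatin models. The interval of C04G6.6 included 1. All but ugt-22 of the silencing models past 2-fold were under 5 RPKM in the lower library. They passed the minimum only through the library where they were high, so their shares are not a test. At 5 to 10 RPKM, 7.39% of all models were past 2-fold higher and 7.66% lower. F15D4.5 (chromosome II, 13245376 to 13247774), which is on both lists, was the lowest of all models tested, at 1.54 RPKM in set-32, 41.7 in met-2 set-25, 55.6 in the triple mutant, 139.8 in hrde-1 and 2.24 in wild type, a 27.1-fold difference (11.3 to 85.1). C38D9.2 had 0.51 RPKM in set-32 and 5.71 in met-2 set-25, against 109.6 in hrde-1. Among the higher models, ife-5, a germline translation initiation factor gene, had 19.5 RPKM in set-32, 3.88 in met-2 set-25, 25.6 in the triple mutant, 78.3 in hrde-1 and 10.98 in wild type, and R11A8.1 had 15.8 in set-32 and 2.92 in met-2 set-25. Of the 14 higher models on the heterochromatin list, C04G6.6, R11A8.1, ife-5, T02G5.4, rpb-4 and F43E2.1 had met-2 set-25 at least 2-fold below all 4 other libraries, and C06A5.5 and Y76G2A.1 had identical values and count as 1 measurement.

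The differing genes were spread over all chromosomes. The share past 2-fold, both directions together, was lowest on chromosome III (2.42% higher and 1.74% lower) and chromosome I (2.65% and 2.27%), and highest on chromosome V (4.23% and 4.75%). On the autosomes, models in the outer parts of the chromosomes were past 2-fold at 3.77% higher and 3.34% lower, against 3.11% and 2.53% in the middle part of equal length to each outer part. The X chromosome had a median log2 ratio of 0.04, against -0.11 on the autosomes. Pseudogenes were past 2-fold more often than protein-coding models, 14 higher and 11 lower of 94 against 343 and 295 of 9990. The difference between these shares was not tested.

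Some differing genes were neighbours. Among 19569 annotated genes in chromosomal order, 34 of the 352 placed genes that were higher in set-32 (9.66%) and 31 of the 309 that were lower (10.03%) stood next to a gene that differed the same way. Over all 9521 placed genes that were tested, 3.55% stood next to a gene higher in set-32 and 3.09% next to a lower one, and the difference was not tested. The adjacent genes include members of 1 family whose reads may be shared, such as 3 pairs of his-14 and his-15, 2 pairs of nspc genes and the pud genes. There were 3 runs of at least 3 adjacent genes. clec-190, M199.9 and col-135 (chromosome IV, 15124931 to 15131797) were higher in set-32, M199.9 at 9.94 against 0 RPKM on about 5 reads with a counting interval that includes no difference, and so were pud-4, pud-2.2 and pud-1.1 (chromosome V, 2326678 to 2330930). The pud genes, named for proteins raised in daf-2 mutants, lie beside pud-1.2 and a further model named pud-2.2, and pud-1.1 and pud-1.2 have identical values, so that their reads cannot be told apart. Their level was 63.6 RPKM in set-32, 17 in met-2 set-25, 27.7 in the triple mutant, 20.9 in wild type and 35.9 in hrde-1. C01G10.5, C01G10.4 and C01G10.17 (chromosome V, 15089076 to 15091114) were lower in set-32, at 1.99, 0 and 0 RPKM against 17, 12.2 and 9.56 in met-2 set-25, and at 10.6, 4.74 and 9.10 RPKM in the triple mutant. They rest on at most 8 reads each.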

How the data were processed

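The authors enriched polyadenylated RNA, sequenced it as 50-nt single-end reads, aligned perfect matches with Bowtie 0.12.7 to genome WS190, and shared a read with N matches as 1/N among them. They deposited RPKM values (reads per kilobase, scaled to depth) of each gene model in 1 table, with 1 library per genotype. Whether counting used strand is not given in the sources used here, so overlapping and antisense genes cannot be told apart.

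Analysis used Python 3.11.15 with numpy 2.4.6, pandas 2.3.3, scipy 1.17.1 and matplotlib 3.10.9. Ratios were taken as log2(RPKM + 1), set-32 minus met-2 set-25, which understates changes of low models. Read numbers were estimated from RPKM steps: 51.4% to 54.4% of low values fell within 0.1 of a whole read, against 20% for evenly spread values, so intervals are approximate. Reads without molecular identifiers are not independent molecules. Symbols, positions and coding lengths came from WBcel235 (Ensembl release 115), matched to 97.1% of models, and no coordinate was converted. Scripts were tested on simulated data.

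The text names the deleted genes, 15 models from each end of the ratios whose interval excluded 1, up to 4 members per list, the 8 most abundant per direction, runs of adjacent genes, and members of the 2 nuclear RNAi lists past 2-fold. The members and the 35 gene lists were chosen with earlier results of these data known, and the counts by shared alleles were added after the values were seen. Library and genotype cannot be told apart.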

Additional observations from a re-analysis of the deposited data

How the results depend on the processing

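No paired analysis was possible because each genotype has 1 library and the labels carry no replicate numbers. The 366 models higher and 321 lower in set-32 became 437 and 409 with a pseudocount of 0.1 RPKM, 357 and 316 with 1 model per gene, 351 and 337 when scaled by the sum outside sperm genes, and 461 and 258 when scaled to a median of 0. They became 152 and 115 with a pseudocount of 5 RPKM, 818 and 899 with no filter on low values, 132 and 84 with a minimum of 20 RPKM, 230 and 186 where the counting interval excluded 1, and 106 and 101 at 3-fold. The counts apart from all 4 other libraries, 45 (set-32 above), 31 (set-32 below), 22 (met-2 set-25 above) and 44 (met-2 set-25 below), became 126, 67, 58 and 72 at 1.5-fold, and 17, 2, 6 and 9 with a pseudocount of 5 RPKM. The stricter settings admit fewer models by construction. All 172 single log2 ratios examined kept their sign with a pseudocount of 0.1 or 5 RPKM and when scaled to a median of 0. Of 45 list medians, 18 changed sign under at least 1 setting, and none of those 18 was farther than 0.159 from 0 at the start. The class of models with no germline assignment was among them, with a median of -0.081 that became 0.011 when scaled to a median of 0. Depth limits the low models: at 5 RPKM a 1-kb model rests on about 11 reads.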

Other observations

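Other gene families had members past 2-fold in both directions, to be read beside 3.56% higher and 3.13% lower over all models tested. Most of these members were under 20 RPKM in the higher library, where larger shares of all models were past 2-fold. At 5 to 10 RPKM the shares were 7.39% higher and 7.66% lower, and at 10 to 20 RPKM they were 4.94% and 4.84%. The F-box genes, substrate adaptors of ubiquitin ligases, had 4 higher (7.02%) and 6 lower (10.5%) among 57 measured models, and the MATH and BTB genes had 4 (10.3%) and 3 (7.69%) among 39. fbxa-107 had 10.9 RPKM in set-32 and 1.02 in met-2 set-25, and fbxa-24 had 1.08 and 11.4. Of 81 nuclear hormone receptor models, 2 were higher (2.47%) and 1 was lower (1.23%), both below the share of all models, and nhr-156 had 9.01 RPKM in set-32 and 0.74 in met-2 set-25. The cytochrome P450, UGT and GST genes, which handle foreign compounds, had 6 higher (7.59%) and 5 lower (6.33%) among 79, with gst-4 at 24.6 RPKM in set-32 and 57.6 in met-2 set-25.

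Of 64 measured histone models, 2 were higher (3.12%, near the share of all models) and 6 lower (9.38%). All 6 lower models were copies of his-14 or his-15, so they are fewer than 6 measurements. For his-15, 2 copies had identical values, 7.7 against 18.4 RPKM, with a counting interval that included 1. The 3 his-14 copies had identical values, at 6.70 RPKM in set-32, 4.68 in the triple mutant, 24.4 in met-2 set-25, 24.3 in wild type and 9.78 in hrde-1, and they count as 1 measurement of about 5 and 16 reads. Many histone messages lack a poly(A) tail, so poly(A)-selected RNA samples them in part. The long noncoding RNA tts-1, chosen after its values were seen, had 24.1 RPKM in set-32, 86.0 in met-2 set-25, 27.8 in the triple mutant, 39.5 in wild type and 74.1 in hrde-1.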
